A study of Homo sapiens with 6 samples.

Results

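CCL20, IL1RN, ICAM1, CD68 and LYZ are 5 genes usually studied in inflamed tissue or in cells of the myeloid lineage, measured here in a single liver cancer line. They are 5 of the 1998 genes in the authors' deposited table of changed genes, and they were chosen by name from its gene column, after their fold changes were known. All values of the comparison were therefore used in choosing them, and the levels, fold changes, errors and adjusted p-values below are a description with no test. HepG2, a human hepatocellular line that keeps many hepatocyte functions, received either a control siRNA (siCon, with 3 libraries) or an siRNA labelled as directed at H19 (siH19, also with 3 libraries). RNA was taken 48 h later and sequenced after removal of ribosomal RNA, and the comparison asks which transcripts change when the long noncoding RNA H19 is targeted. Both groups are the same line in the same medium and differ by the siRNA named. The H19 siRNA is identified only by that name, no other H19 siRNA is among the groups, and the level of H19 itself was not analysed here, so siH19 is used as a label.

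NF-kB is a family of dimeric transcription factors held in the cytoplasm by IkB inhibitors. Receptors for interleukin-1, tumour necrosis factor and microbial products activate the IkB kinase, IkB is degraded, and the freed dimers bind kappaB sites near cytokine, chemokine, adhesion and survival genes. In hepatocytes this pathway drives part of the acute phase response. CCL20 is a chemokine that attracts cells bearing its receptor CCR6. IL1RN encodes the interleukin-1 receptor antagonist, which occupies the receptor without signalling. ICAM1 is a surface adhesion molecule bound by leukocyte integrins. These 3 are textbook NF-kB responsive genes. CD68 is a heavily glycosylated protein of lysosomal and endosomal membranes, and LYZ is lysozyme, a secreted enzyme that cleaves bacterial cell walls. Both are used as markers of macrophages and other myeloid cells, although neither is restricted to them.

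The start regions of the genes are shown because kappaB sites are what sets the first 3 apart in textbooks from the other 2. The windows come from RefSeq on GRCh38.p14, run from 250 bases before to 50 bases after an annotated start, and were found for 4 of the 5 genes. The searches covered both strands. Capitals mark a kappaB match or an AP-1 match (TGANTCA). The kappaB match is the consensus in CCL20, the p65-type variant in ICAM1, and in IL1RN a looser pattern (GGGNNNNNCC) that was added after the letters had been seen.
CCL20, plus strand, chr2:227813592-227813891: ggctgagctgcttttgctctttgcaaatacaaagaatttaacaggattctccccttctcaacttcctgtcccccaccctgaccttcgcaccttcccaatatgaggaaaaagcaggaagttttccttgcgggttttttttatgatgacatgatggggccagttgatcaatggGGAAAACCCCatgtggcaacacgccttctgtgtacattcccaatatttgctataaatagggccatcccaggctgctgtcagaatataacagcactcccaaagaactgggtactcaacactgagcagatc
ICAM1, plus strand, chr19:10270870-10271169: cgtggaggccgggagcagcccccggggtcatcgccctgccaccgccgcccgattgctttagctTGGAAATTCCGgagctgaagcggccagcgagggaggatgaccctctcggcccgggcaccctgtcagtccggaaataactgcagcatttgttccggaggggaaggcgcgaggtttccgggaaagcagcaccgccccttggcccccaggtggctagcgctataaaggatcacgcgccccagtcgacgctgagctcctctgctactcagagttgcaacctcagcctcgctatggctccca
IL1RN, the third of 3 annotated starts, plus strand, chr2:113127348-113127647: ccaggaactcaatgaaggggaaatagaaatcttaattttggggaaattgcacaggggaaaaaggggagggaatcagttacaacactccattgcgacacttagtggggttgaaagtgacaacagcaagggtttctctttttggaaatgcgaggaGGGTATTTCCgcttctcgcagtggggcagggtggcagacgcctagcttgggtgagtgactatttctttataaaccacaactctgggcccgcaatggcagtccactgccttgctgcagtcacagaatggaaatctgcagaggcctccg
CD68, plus strand, chr17:7579388-7579687: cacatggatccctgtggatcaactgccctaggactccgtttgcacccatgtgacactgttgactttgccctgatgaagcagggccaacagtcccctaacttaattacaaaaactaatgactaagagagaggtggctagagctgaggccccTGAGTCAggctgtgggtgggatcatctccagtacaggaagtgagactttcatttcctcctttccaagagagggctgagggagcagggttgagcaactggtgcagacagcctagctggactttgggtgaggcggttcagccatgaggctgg

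In CCL20 the kappaB consensus lay on the minus strand, with its first base 79 bases before the start, at GGAAAACCCC. The p65-type variant lay 187 bases before the start of ICAM1, at TGGAAATTCC, and overlapped a second match on the other strand at position -186. Of 35116 RefSeq windows of this length, 11.3% held the consensus and 9.74% the variant. No window of IL1RN or CD68 held either. In IL1RN, of the kappaB patterns, the loose one alone matched. It matched as GGGTATTTCC, 97 bases before the third start and 13 bases after the second, and at 4 other places around the first start (117, 78 and 45 bases before it and at position 39), and 58.7% of all windows hold that pattern. AP-1 matches were found 100 bases before the start of CD68 and 223 bases before the first start of IL1RN, against 7.71% of all windows. A TATA box (TATAAA) stood 29 and 30 bases before the starts of CCL20 and ICAM1 and 30 bases before the third start of IL1RN, and 11.5% of windows hold one. CD68 held no TATA box, but a C/EBP match (TTGCNNAA) 13 bases and an ETS core (GAGGAA) 48 bases before its start, which 10.5% and 27.9% of windows hold. CCL20 also held an ETS core, 149 bases before its start. The E-box CACGTG of many lysosomal genes was in none of these windows and in 7.26% of all. These are matches of letters, and no binding was measured. Among windows of listed genes, the kappaB consensus was in 10.1% of 1244 windows of genes lower in siH19 and in 15.8% of 1102 windows of genes higher. For the p65-type variant the shares were 10.9% and 10.7%.

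**Figure D1:**
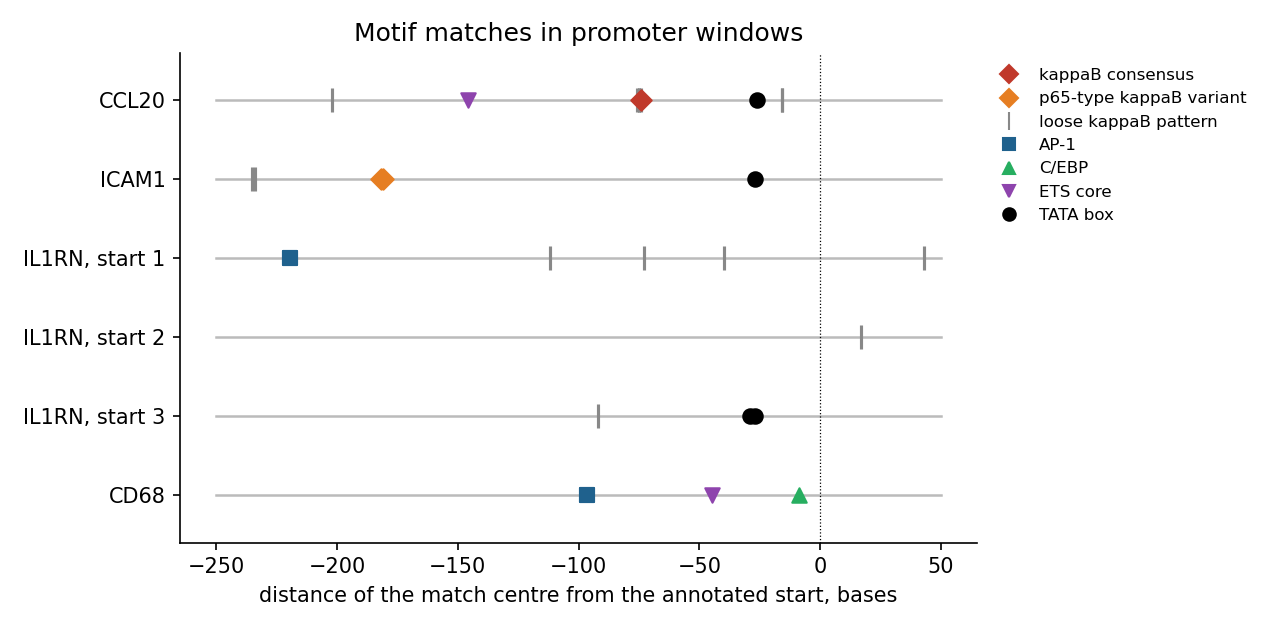
Each line is a RefSeq window of 1 annotated start, the x axis is the distance in bases of a match's centre from the start, and marker shapes give the motif. The kappaB consensus is in CCL20 alone and the p65-type variant in ICAM1 alone, while CD68 holds AP-1, ETS core and C/EBP matches and no kappaB match.

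All 5 genes were lower in siH19. The group values are normalized counts on a log2 scale, 1 combined value per group, so no spread between libraries can be shown for them, and the error of a fold change is the authors' standard error (SE). The adjusted p is written as 0 for all 5 in the authors' deposited table, below its last digit, as for 14.4% of the listed genes. In bulk RNA, fewer cells that hold a transcript and less of it per cell cannot be told apart.

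CCL20 stood at 10.41 in siCon and 9.21 in siH19 on the log2 scale in the authors' deposited table, which is 1361 and 592 normalized counts. Its log2 fold change in the authors' deposited table was -1.20 ± 0.17 (SE), a 2.30-fold fall that left 43.5% of the siCon level. CCL20 had the largest SE of the 5, and the fall was 7.06 times that SE.

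IL1RN stood at 8.19 in siCon and 7.29 in siH19 in the authors' deposited table, or 292 and 156 normalized counts, the lowest counts of the 5, not corrected for length. The log2 fold change was -0.90 ± 0.14 (SE) in the authors' deposited table, with 53.6% of the level left. Counting error alone, taken from the normalized counts over 3 libraries per group, would give an SE of 0.083. Its square is 34.7% of the squared deposited SE, a higher ratio than for the other 4 genes. For ITGAL, TLR6 and SAMD9, given below, the deposited SE is smaller than counting error. The ratio is therefore not read as a share of the error. The gene makes secreted and intracellular forms from different starts, and a value per gene does not separate them.

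ICAM1 fell from 11.75 to 11.04 on the log2 scale in the authors' deposited table, or from 3444 to 2106 normalized counts. Its log2 fold change of -0.71 ± 0.07 (SE) in the authors' deposited table is smaller than that of CCL20, and its SE is the smallest of the 5. At 10.1 SEs the ICAM1 fall is better resolved than the CCL20 fall, although it left 61.1% of the siCon level.

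CD68 went from 10.14 to 8.93 in the authors' deposited table, or from 1128 to 488 normalized counts. The log2 fold change was -1.21 ± 0.11 (SE) in the authors' deposited table, a 2.31-fold fall that left 43.2%. It was the best resolved of the 5 in units of its SE (11), and by value the largest fall, 0.01 beyond CCL20.

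LYZ had by far the highest counts, not corrected for length, at 14.63 in siCon and 13.99 in siH19 in the authors' deposited table, or 25355 and 16271 normalized counts. It ranked 12 by mean count among the 1998 listed genes, at 32.6 times the median listed gene. Its log2 fold change in the authors' deposited table was -0.64 ± 0.08 (SE), the smallest of the 5, with 64.2% left. In counts its loss was the largest: LYZ made up 75.9% of the normalized counts that the 5 genes lost together and 80.3% of their counts in siCon.

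**Figure D2:**
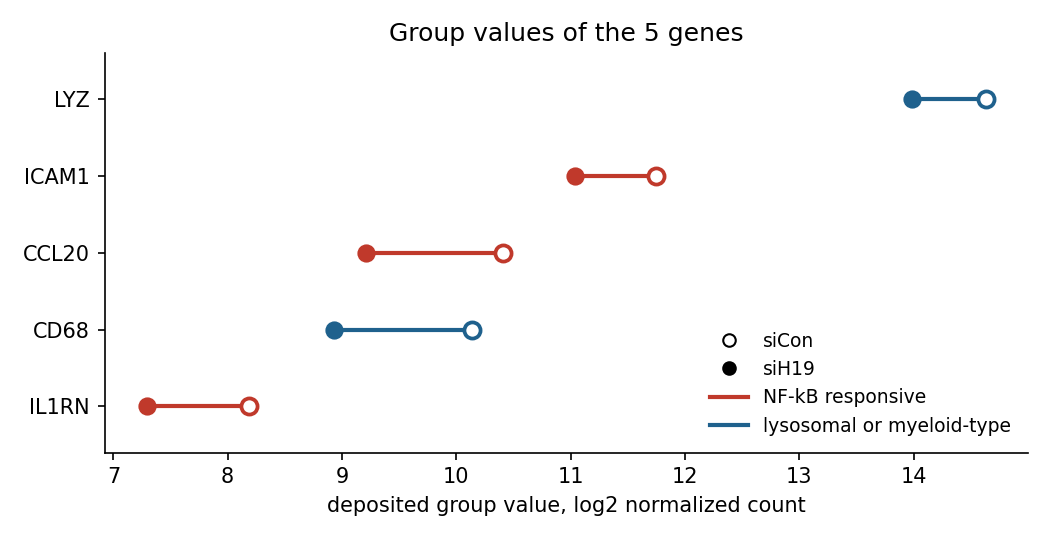
The x axis is the authors' group value in log2 normalized counts, with siCon as open and siH19 as filled circles. Every line runs to the left in siH19, and the longest lines belong to CCL20 (10.41 to 9.21) and CD68 (10.14 to 8.93).

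Division into NF-kB responsive and lysosomal or myeloid-type genes did not separate the sizes of the falls. The mean log2 fold change was -0.94 over CCL20, IL1RN and ICAM1 and -0.93 over CD68 and LYZ, both from values in the authors' deposited table. Each class held 1 of the 2 largest falls and 1 of the 2 smallest. CCL20 and CD68, of different classes, differed by 0.01 ± 0.20 (log2, combined SE). ICAM1 and LYZ, also of different classes, differed by -0.07 ± 0.11. Within the classes, CCL20 and ICAM1 differed by -0.49 ± 0.18 and CD68 and LYZ by -0.57 ± 0.14. These differences describe genes chosen with their fold changes known, and no test of the classes was made. The combined SE takes the errors of the genes as independent, although all were measured in the same libraries.

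Counts of different genes depend on transcript length, so levels were also ordered per kilobase of the longest annotated transcript. In siCon the order was LYZ with 16572 normalized counts per kb, CCL20 with 1622, ICAM1 with 1059, CD68 with 601 and IL1RN with 152. In siH19 it was 10634, 706, 647, 260 and 81.4 in the same order of genes. CCL20 thus exceeded ICAM1 1.53-fold in siCon and stood near it in siH19. With the union of annotated exons as the length, ICAM1 came before CCL20 (929 and 854 per kb in siCon), so the order of these 2 is not settled, and that of LYZ, CD68 and IL1RN was the same. LYZ exceeded CD68 per kb by 27.6-fold in siCon and by 40.9-fold in siH19.

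Among the listed genes, 55.3% were lower in siH19 and 2.40% were lower by at least 2-fold. The 5 genes were taken from the fallen ones, so their count of 5 is not read against the first share. CCL20 and CD68 are the 2 with at least a 2-fold fall. By size of fall, CD68 ranked 17 and CCL20 19 of the 1105 lower genes, IL1RN 76, ICAM1 159 and LYZ 229. Ranked by fall over SE, the order turned to CD68 (11), ICAM1 (19), LYZ (63), CCL20 (93) and IL1RN (129).

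Fold changes in the table are smaller at high counts, so each gene was also set beside listed genes within a factor of 2 of its mean count. Of 33 such genes for LYZ, 25 were lower, with a median of -0.32 among those, and 0 fell as far as LYZ. Of 780 for CCL20 and 820 for CD68, 6 and 6 fell at least as far. For ICAM1 it was 15 of 448 and for IL1RN 30 of 554. The table holds genes that passed the authors' threshold only, so genes of the same level that did not change are not in these counts. The result for LYZ also depends on the edge of its window. Above that edge, ALB (-0.67 ± 0.07, mean count 42275) and APOB (-0.70 ± 0.09, 240657) fell further than LYZ by value in the authors' deposited table. SERPINA1 (-0.60 ± 0.08, 65367), also above it, fell less.

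**Figure D3:**
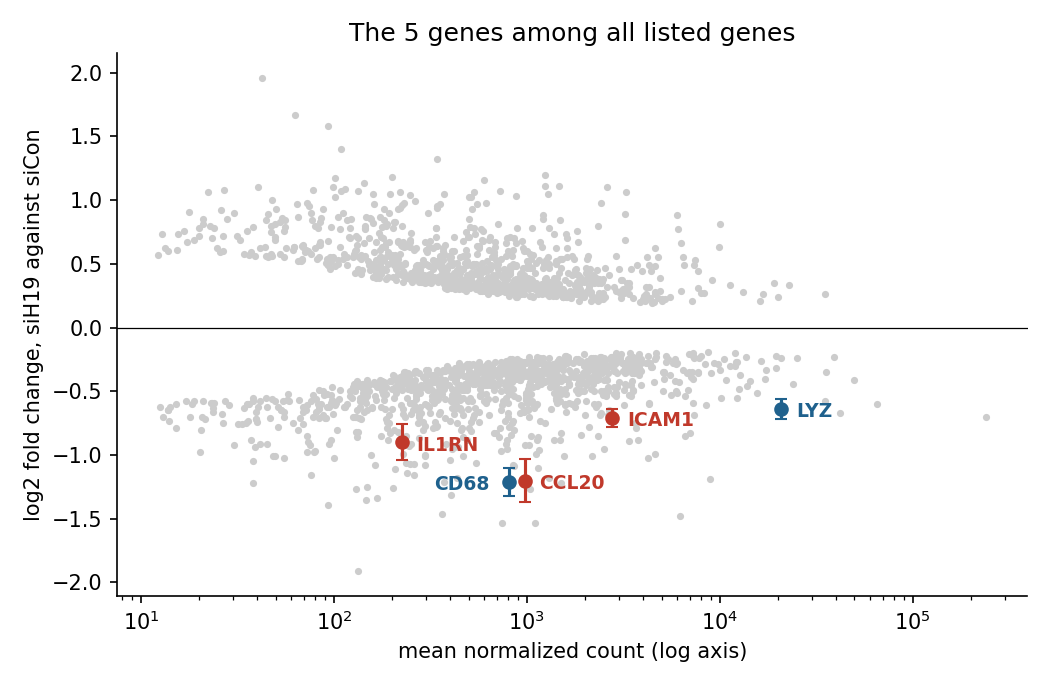
Each grey point is 1 of the 1998 listed genes, with mean normalized count on a log x axis and log2 fold change on the y axis. Bars on the 5 coloured genes are ± 1 SE. LYZ lies below the 33 listed genes within a factor of 2 of its count, though ALB (-0.67) and APOB (-0.70), at higher counts, lie lower. CCL20 and CD68 lie side by side near -1.2.

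Some listed genes other than the 5 have nearly the same fold change as a member at a similar mean count. For CD68 they were SLC2A2 and DAZAP2, both -1.22 in the authors' deposited table, a difference of 0.01. For CCL20, 3 genes tied at a distance of 0.02, among them SLC2A2 and AGFG2 (-1.18) in the authors' deposited table. For IL1RN they were ALDH1L1 and LOC101927884, both -0.91, and for ICAM1, where 3 genes tied at 0.02, SERPIND1 and BNIP3, both -0.69, in the authors' deposited table. LYZ had APOA2 (-0.58) and EIF4G2 (-0.55) in the authors' deposited table. Likeness here is the absolute difference in log2 fold change over 1 comparison.

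Other NF-kB responsive genes were mostly lower where listed. This list and those below were written with earlier results of these data known, so their counts are a description. Of 68 symbols written down for this list 10 were listed, 9 lower and 1 higher, where 55.3% of all listed genes were lower, and their median log2 fold change was -0.72, where that of all listed genes was -0.27. Without CCL20, IL1RN and ICAM1 it was 6 lower and 1 higher, with a median of -0.69. SOD2, the mitochondrial superoxide dismutase, fell by 0.89 ± 0.10 (log2, SE) in the authors' deposited table, from 12.10 to 11.20. BIRC3, an inhibitor of apoptosis that acts in the same pathway, changed by -0.82 ± 0.14 in the authors' deposited table, from 8.11 to 7.29. TNFAIP8, an apoptosis regulator induced by tumour necrosis factor, was the 1 that rose, by 0.35 ± 0.12 in the authors' deposited table (adjusted p = 0.0222). Among the symbols not in the table were CXCL8, CCL2, IL6, NFKBIA and TNFAIP3, 5 widely used targets named here after the table was searched. A symbol that is not listed was either not called or not measured, and these cannot be told apart.

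Chemokines and the interleukin-1 family gave few entries. Of 34 chemokine symbols 3 were listed, all lower, where 55.3% of all listed genes were lower. Without CCL20, which was taken from the fallen genes, 2 were left. CCL16, a chemokine made by the liver, changed by -1.25 ± 0.18 in the authors' deposited table, about as much as CCL20, at a mean of 148 normalized counts. CX3CL1, a membrane-bound chemokine, changed by -0.42 ± 0.09 in the authors' deposited table. Of 22 interleukin-1 family symbols 3 were listed, all lower: IL1RN and both chains of the receptor that it blocks. Without IL1RN, also taken from the fallen genes, 2 were left, beside the same 55.3%. IL1R1, the ligand-binding chain, fell from 11.75 to 11.21 in the authors' deposited table, -0.54 ± 0.10. IL1RAP, the accessory chain that signalling needs, changed by -0.34 ± 0.09 in the authors' deposited table (adjusted p = 0.0027). Antagonist and receptor were thus lower in the same cells, and IL1A and IL1B, the agonists, were not listed.

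Of 43 receptor symbols 13 were listed, 8 lower and 5 higher, with a median of -0.34. The share lower (61.5%) is near the 55.3% of all listed genes. All 8 lower genes overlap another annotated gene on either strand, as do most of the higher ones, so 0 lower and 1 higher were left without such genes. How many of all listed genes overlap another gene is not given here, so the overlaps are not read as particular to receptors. The CCL20 receptor CCR6, named after its value was seen, changed by -0.51 ± 0.12 in the authors' deposited table at a mean of 279 normalized counts, so ligand and receptor were both lower. IL6R, the interleukin-6 binding chain, fell by 0.59 ± 0.09 in the authors' deposited table, while IL6ST, the signalling chain it shares with related cytokines, rose by 0.88 ± 0.08, from 12.04 to 12.92, in the authors' deposited table. IL10RB (0.83 ± 0.14) and IFNGR1 (0.47 ± 0.10), chains of interleukin-10 family and interferon receptors, were also higher in the authors' deposited table. TLR6, a Toll-like receptor, was lower (-0.58 ± 0.22) in the authors' deposited table, at a mean of 20.9 normalized counts and an adjusted p of 0.0491, with an SE below the 0.263 of counting error alone.

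The chains of the integrin that binds ICAM1 on leukocytes were listed in opposite directions at very low counts. ITGAL, the alpha chain, changed by -0.70 ± 0.22 at a mean of 18.0 normalized counts, and ITGB2, the beta chain, by 0.60 ± 0.19 at 73.7, in the authors' deposited table. For ITGAL the deposited SE is below the 0.286 that counting error alone would give. Of 28 leukocyte adhesion symbols 5 were listed, 2 lower and 3 higher, where 55.3% of all listed genes were lower. The higher ones besides ITGB2 were ALCAM (1.05 ± 0.09), an adhesion molecule of the immunoglobulin family like ICAM1, and the junction protein JAM3 (0.55 ± 0.15) in the authors' deposited table. Of the 4 listed adhesion genes other than ICAM1, 1 was lower and 3 were higher.

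Among the components of the pathway itself, 5 of 49 symbols were listed, 4 lower and 1 higher, with a median of -0.44, where 55.3% of all listed genes were lower. Of the 4, 1 was left at an adjusted p under 0.01 in the authors' deposited table and 0 at a change of at least 1.5-fold. IKBKG, the regulatory subunit of the IkB kinase, changed by -0.45 ± 0.16 in the authors' deposited table, and RBCK1, part of the linear ubiquitin ligase that acts on it, by -0.46 ± 0.13. NKIRAS1, an inhibitor that binds IkB, changed by -0.44 ± 0.15 and IRAK2, a kinase below the interleukin-1 receptor, by -0.34 ± 0.12 in the authors' deposited table. RIPK2, a kinase below NOD receptors, was higher (0.42 ± 0.12) in the authors' deposited table. Activators and an inhibitor were thus lower side by side, and no NF-kB or IkB subunit of the list was in the table.

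Lysosomal genes were listed in both directions, where 55.3% of all listed genes were lower, and their shares are not read as particular to them. Over 3 lists with 136 symbols in all, 16 were listed, 11 lower and 5 higher, with a median of -0.39. Without CD68 and LYZ it was 9 lower and 5 higher, with a median of -0.36. Of the membrane list, with LAMP1 and LAMP2, the relatives of CD68, not listed, the sialic acid exporter SLC17A5 (-0.40 ± 0.11) and OSTM1 (-0.34 ± 0.11), partner of a lysosomal chloride exchanger, were lower and TMEM106B (0.24 ± 0.09), a lysosomal membrane protein, was higher in the authors' deposited table. Among hydrolases and cofactors, the hyaluronidase HYAL1 (-0.60 ± 0.11) came nearest to LYZ in the authors' deposited table. GM2A (-0.43 ± 0.10), an activator protein of ganglioside breakdown, and AGA (-0.38 ± 0.13), which trims glycoproteins, were also lower in the authors' deposited table. The sulfatase GALNS (0.53 ± 0.16) and the peptidase-like SCPEP1 (0.41 ± 0.13) were higher in the authors' deposited table. In the biogenesis list the nutrient-sensing factors RRAGA (-0.44 ± 0.13), FNIP1 (-0.39 ± 0.11) and FNIP2 (-0.41 ± 0.09) were lower and LAMTOR2 (0.54 ± 0.17) was higher in the authors' deposited table. Nearest to CD68 in log2 fold change among the lysosomal genes was LYZ, 0.57 away, followed by HYAL1, 0.61 away.

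**Figure D4:**
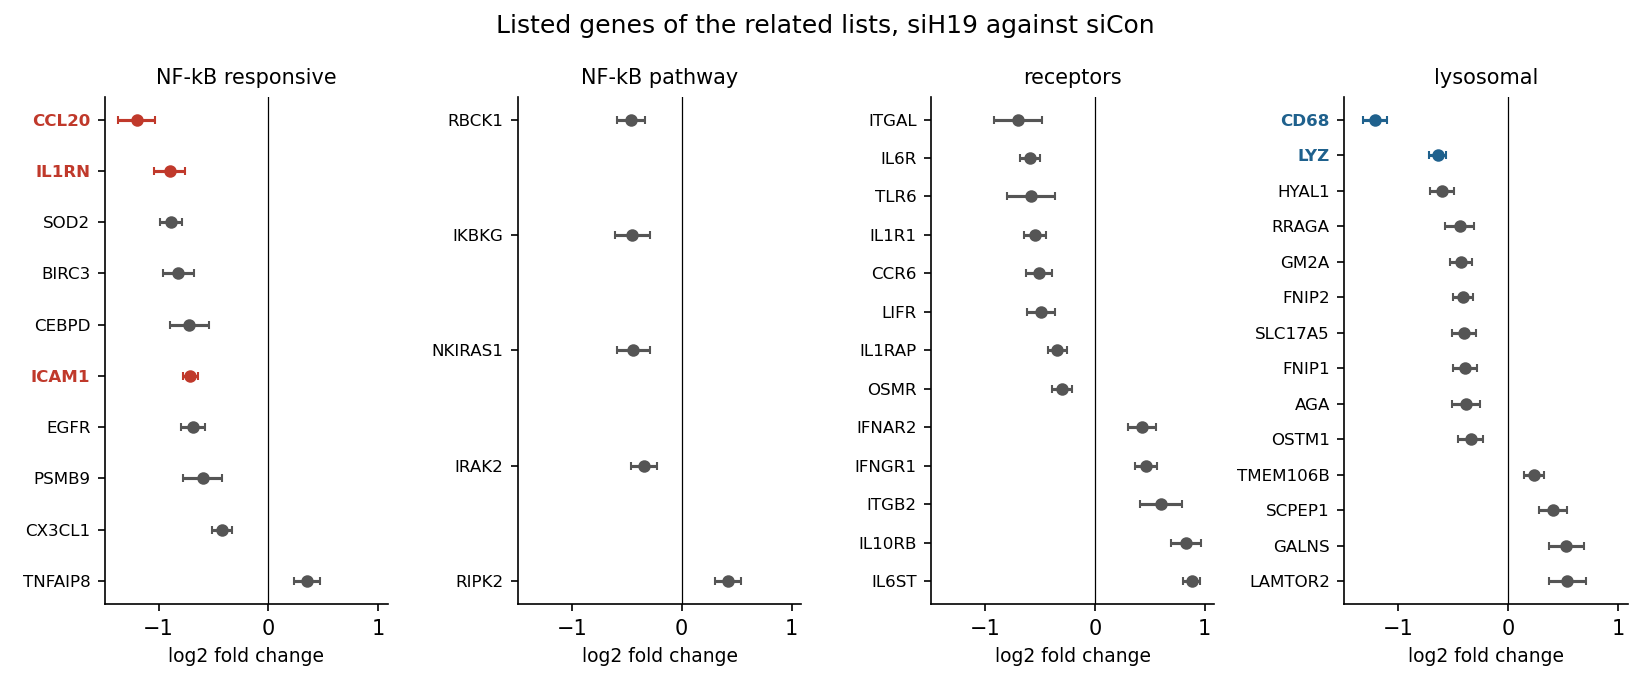
Points are log2 fold changes of siH19 against siCon and bars ± 1 SE, for the listed genes of 4 groups that are reported here, with the 5 members in colour. In the NF-kB responsive panel 9 of 10 genes are left of 0, and the lysosomal panel shows 10 left and 4 right of 0, with CD68 apart at -1.21. These counts include the members, which were taken from the fallen genes. Without members, 6 NF-kB responsive genes were lower and 1 higher. Of all listed lysosomal genes, also those not shown, 9 were then lower and 5 higher. Among all listed genes 55.3% were lower. The lists were written with earlier results of these data known.

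Of 45 myeloid and macrophage symbols written down, CD68 and LYZ alone were listed. Of 7 defining markers (PTPRC, CD14, CD163, CSF1R, MARCO, TYROBP and SPI1) 0 were listed. The leukocyte integrin chains ITGAL (lower) and ITGB2 (higher), given above at very low counts, were placed in other lists and are not among the 45. Of 22 lymphoid symbols 0 were listed. Symbols that are not listed were either not called or not measured, so these counts do not show which cell types were present. Of 26 endothelial and stellate symbols 2 were listed, LYVE1 (-0.98 ± 0.20, at 78.6 normalized counts) and ACTA2 (-0.83 ± 0.11), both lower in the authors' deposited table. All 8 hepatocyte markers written down for HepG2 were listed, with mean normalized counts from 793 to 240657. All 8 were lower, where 55.3% of all listed genes were lower. They too were chosen with earlier results of these data known, so both counts are a description. The part of these 8 markers in the falls of the 5 genes was not tested. Interferon response genes gave 3 of 39 symbols, with USP18 (-0.43 ± 0.15) and IFI35 (-0.42 ± 0.14) lower and SAMD9 (0.85 ± 0.22) higher in the authors' deposited table. The share of 55.3% also stands beside these and the endothelial and stellate genes, which are too few to be set against it. The SE of SAMD9 is below the 0.233 of counting error alone, at a mean of 27.8 normalized counts.

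Neighbouring and overlapping genes were checked, since shared reads could carry a change. On GENCODE release 29, ICAM1, CD68 and LYZ overlap unlisted noncoding genes, on the opposite strand in each case and for CD68 also on its own, and CCL20 and IL1RN overlap none. ICAM4 and ICAM5, which follow ICAM1 directly, were not listed, nor were EIF4A1 before and MPDU1 after CD68. Of the 2 nearest protein-coding genes on each side of every member, only YEATS4 (-0.54 ± 0.13) and FRS2 (-0.31 ± 0.11), both after LYZ, were listed in the authors' deposited table. Whether strand was used in counting was not given in the sources used here.

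2 short sequences that go with direction in this table were looked up in the 3' UTRs of the 5 genes, since both occur among them. They are CATCAAA and GCAGTAC, and each site is shown in capitals with its flanks, from GENCODE release 29 transcripts.
ICAM1, base 418 of a 3' UTR of 1328 bases: gacatgtgtagCATCAAAacacaaaggcc
IL1RN, base 788 of a 3' UTR of 1145 bases: tacagctgcctGCAGTACtttacctccta

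Of 1881 listed genes with a searched 3' UTR, 365 (19.4%) held CATCAAA in some coding transcript, and the share lower in siH19 was 69.9% with it and 50.9% without it. ICAM1 is among those lower, with the site in 1 of its 2 annotated 3' UTRs. GCAGTAC occurred in 191 genes (10.2%), and here the share lower was 16.8% with it and 58.9% without it. IL1RN holds this site in 4 of 5 transcripts and fell, so it is 1 of the 32 lower genes with it. CCL20, CD68 and LYZ held neither sequence in any annotated 3' UTR, and CCL20 and CD68 had the largest falls of the 5. The sequences were found earlier in this same table, so these shares are a description.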

How the data were processed

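Total RNA of 6 HepG2 libraries (3 siCon, 3 siH19) was sequenced, per the labels' protocols, from a strand-specific kit after ribosomal RNA removal. STAR 2.5.0a, Cufflinks 2.2.1, DESeq2 1.0.0 and build hg19 are named, with no roles, per the submitters' processing notes. The authors deposited 1 table, which per the file headers gives log2 counts per group, the mean of the counts, the log2 fold change with its standard error, and q. The mean count is a normalized signal deposited by the authors, and the standard error was taken as a score as deposited by the authors. The deposited q value, an adjusted p-value from the authors, was at most 0.0498, so only called genes are present. It is 0, below its precision, for 287 genes including all 5 members, and the smallest value above 0 was 1e-06. The fold change equalled the difference of the group values within 0.01. Columns from outside the series numbered 0.

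No test was added. Libraries are not described as separate cultures, so the authors' errors may be technical. Depth per library is unknown, as no library totals were used. Members, cell type markers and 13 gene lists (470 symbols, 52 listed, matched by symbol, with 0 more by RefSeq synonym) were chosen with earlier results of these data known. Named genes are the members, all listed genes of a list up to 8 (otherwise 4 each way), the 2 nearest by fold change per member, and listed neighbours; others are said to be chosen later. Some lysosomal genes are counted but not reported by name here. Linear levels are 2 to the power of the group value. Lengths, neighbours and 3' UTRs came from GENCODE release 29 and promoters from RefSeq, both on GRCh38, which is not the build of the notes. Python 3.11.15, pandas 2.3.3 and numpy 2.4.6 were used, and the motif search was tested on simulated data.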

Additional observations from a re-analysis of the deposited data

How the results depend on the processing

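The table gives 1 value per group, so no library could be left out. No paired analysis was possible because the table holds no values per library. All 5 fold changes kept their direction. Adding 100 normalized counts to both groups moved IL1RN to -0.61 and CD68 to -1.06, by more than 1 SE, while adding 10, or taking the difference of the group values, moved none of the 5 by as much. Of NF-kB responsive genes, 9 lower became 4 at mean counts at or above the median and 5 without genes that overlap another annotated gene, and the 1 higher became 0 at an adjusted p under 0.01, at 1.5-fold or without overlaps. Of the lysosomal genes, 11 lower became 3 at 1.5-fold and 3 without overlaps, and 5 higher became 1 at an adjusted p under 0.01, 2 at the higher mean counts, 0 at 1.5-fold and 3 without overlaps. With the union of exons as length, CCL20 moved to place 3 and ICAM1 to place 2. The kappaB consensus was in 1 gene of the 4 with a window, the p65-type variant in 1 and the loose pattern, added after the letters were seen, in 3. Of the other values tried, ranks and counts of small lists, 53 moved by over 1.5 times and 66 did not. Low counts limit ITGAL, TLR6 and SAMD9 most, whose deposited SE of 0.22 is below the counting SE (0.286, 0.263 and 0.233).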
